A study of Mus musculus with 12 samples.

Results

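The regions described here are the microglial open-chromatin sites that gained the most ATAC-seq signal in mice lacking Sgsh. Of 91770 peaks measured in microglia, 371 (0.404%) met a rule of size: the lower of the 2 SgshKO values was at least 30 normalized tags (scaled to a library total of 10000000), and was at least 3 times the higher of the 2 WT values. Among the 38494 peaks with both SgshKO values at 30 or more, the only ones that could meet the rule, the share was 0.964%. The members were chosen by the microglia tag values themselves, so the gain in microglia is a description with no test, while the NeuN+ and Olig2+ libraries took no part in the choice. The mirrored rule, with WT and SgshKO exchanged, held for 60 peaks (0.0654%), or 0.141% of the 42459 peaks with both WT values at 30 or more.

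ATAC-seq, in which a transposase cuts and tags accessible DNA, was run on forebrain of C57BL/6 mice aged 4 months. WT mice were compared with SgshKO mice in 3 sorts, with 2 libraries per genotype and sort. Microglia were live CD11b+, CX3CR1+ cells with low CD45; NeuN+ nuclei, sorted as neurons, lacked PU.1 and OLIG2, and Olig2+ nuclei, sorted as oligodendrocytes, lacked PU.1 and NEUN. The nuclei, unlike the microglia, came from lightly fixed tissue. The labels do not give the kind of Sgsh allele, the sex of the mice or whether the 2 libraries of a group came from separate animals, so p-values measure only the spread between these libraries.

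Sgsh encodes the lysosomal sulfamidase that removes sulfate groups from heparan sulfate, and its loss causes mucopolysaccharidosis type IIIA (Sanfilippo syndrome A), in which heparan sulfate builds up in lysosomes. Microglia, the resident macrophages of the brain, take up and degrade debris through their lysosomes. Around plaques and in other disease settings they take on a disease-associated (DAM) state with raised Apoe, Fabp5, Igf1 and lysosomal genes. Accessible sites at transcription start sites (TSS) mark promoters, and those away from them often mark enhancers, so a site that opens can be read as a regulatory element that became more accessible, not as a change in RNA.

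Promoter windows of 5 opened start-site peaks are shown to place the opened DNA relative to the start: those of Ulk1 (a kinase that starts autophagy), Esrra (a nuclear receptor that controls mitochondrial genes), Acsl1 (which activates long-chain fatty acids), Fau (a ribosomal protein fused to a ubiquitin-like domain) and Apoe (the main lipid carrier of the brain). The windows run 5′ to 3′ on the gene's own strand from 250 bases before to 50 after the RefSeq start of mouse build GRCm38.p6, whose chromosomes are those of the mm10 build of the files. Capitals mark the bases inside the opened microglia peak. The windows lie at chr5:110810032-110810331 (minus strand) for Ulk1, chr19:6921759-6922058 (minus) for Esrra, chr8:46470787-46471086 (plus) for Acsl1, chr19:6057697-6057996 (plus) for Fau and chr7:19699139-19699438 (minus) for Apoe.
Ulk1 promoter: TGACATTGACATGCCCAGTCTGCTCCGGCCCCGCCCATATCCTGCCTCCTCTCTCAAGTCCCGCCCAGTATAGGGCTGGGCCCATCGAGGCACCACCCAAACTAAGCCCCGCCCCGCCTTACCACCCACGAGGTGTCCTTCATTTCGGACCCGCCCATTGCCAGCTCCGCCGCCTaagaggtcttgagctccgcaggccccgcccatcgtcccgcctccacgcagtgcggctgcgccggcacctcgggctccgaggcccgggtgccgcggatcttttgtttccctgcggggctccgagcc
Esrra promoter: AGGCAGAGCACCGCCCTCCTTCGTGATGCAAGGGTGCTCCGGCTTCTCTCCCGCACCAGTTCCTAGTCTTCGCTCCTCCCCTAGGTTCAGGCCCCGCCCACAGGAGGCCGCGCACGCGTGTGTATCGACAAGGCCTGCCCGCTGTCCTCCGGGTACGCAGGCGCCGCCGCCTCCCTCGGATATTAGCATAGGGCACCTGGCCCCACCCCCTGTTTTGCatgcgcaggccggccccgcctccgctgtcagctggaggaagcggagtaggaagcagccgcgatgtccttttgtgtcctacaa
Acsl1 promoter: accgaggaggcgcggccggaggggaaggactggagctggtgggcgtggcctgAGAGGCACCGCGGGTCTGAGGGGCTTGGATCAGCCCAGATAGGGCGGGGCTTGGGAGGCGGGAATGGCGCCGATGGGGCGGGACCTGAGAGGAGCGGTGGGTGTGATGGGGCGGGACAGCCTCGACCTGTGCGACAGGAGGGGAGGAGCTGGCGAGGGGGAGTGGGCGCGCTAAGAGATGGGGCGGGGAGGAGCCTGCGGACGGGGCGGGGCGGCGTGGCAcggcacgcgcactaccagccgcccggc
Fau promoter: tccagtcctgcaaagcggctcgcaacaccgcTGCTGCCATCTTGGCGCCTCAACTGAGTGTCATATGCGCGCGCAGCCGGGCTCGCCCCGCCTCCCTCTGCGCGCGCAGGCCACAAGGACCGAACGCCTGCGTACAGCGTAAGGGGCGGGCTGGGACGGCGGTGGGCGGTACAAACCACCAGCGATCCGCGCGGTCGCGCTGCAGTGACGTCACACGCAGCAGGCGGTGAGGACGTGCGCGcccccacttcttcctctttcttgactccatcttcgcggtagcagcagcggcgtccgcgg
Apoe promoter: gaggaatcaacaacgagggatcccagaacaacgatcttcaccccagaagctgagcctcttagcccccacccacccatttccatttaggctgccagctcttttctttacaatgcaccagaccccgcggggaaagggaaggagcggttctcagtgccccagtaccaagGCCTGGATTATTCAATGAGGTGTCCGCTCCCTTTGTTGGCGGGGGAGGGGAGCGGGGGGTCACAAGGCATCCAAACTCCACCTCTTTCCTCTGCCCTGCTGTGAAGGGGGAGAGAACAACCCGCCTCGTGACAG
In Ulk1 and Esrra the capitals began at or before the first base shown and ended before the start site, at bases 175 and 218 of the window. In Fau they ended at base 241, and in Acsl1 they ran past the start site to base 273. The Apoe peak covered the start site, from base 167 of the window onwards. The Apoe window also held AGAACA, the core of a glucocorticoid receptor element, at 2 places, 1 of them in the opened part; the other 4 windows held no match to any of the motifs searched below.

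Depth was similar across the microglia libraries, at 11571268 and 11804222 tags in WT and 11550776 and 10771659 in SgshKO, of which 55.8%, 48.7%, 67.4% and 53.7% fell in peaks. Start-site peaks of 10 microglia markers summed to 2427 and 2050 tags in WT and to 2441 and 1879 in SgshKO. Of 12 blood myeloid markers, 8, Ccr2 and Ly6c2 among them, had no peak at their start, and the other 4 summed to between 96.55 and 128.8 in all 4 libraries. Those of 10 cell cycle genes summed to 751 and 652.3 in WT and 985.2 and 939.5 in SgshKO, and their part in the results was not tested. The 2 SgshKO microglia libraries differed from each other by more than counting error, with a mean chi-square per peak of 9.84 (3.06 between the WT libraries, 1 expected from counting alone), against 1.18 to 1.41 in the nuclei.

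The members fell into 3 sets by position: 136 had their centre within 1000 bp of a TSS, 19 lay in the exon of the long non-coding RNA Neat1, and 216 lay elsewhere. The members at an annotated Neat1 transcript end are counted among the 216. Tags at the 136 start-site members had medians of 75.2 and 66.1 in the WT libraries and 278.8 and 352.3 in the SgshKO libraries. At the 216 distal members outside the Neat1 exon the WT medians were 12.96 and 12.71, and those of SgshKO 66.7 and 58.5. So the start-site members were well-covered sites in WT that rose by a median of 4.04-fold in the group means, while the distal members came from a low level and rose by a median of 5.05-fold. The largest mean rise at a start site was 10.8-fold, and 8 of the 136 had a lower SgshKO value over 5 times the higher WT value, as did 42 of the 216 distal members and 16 of the 19 in Neat1.

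**Figure D1:**
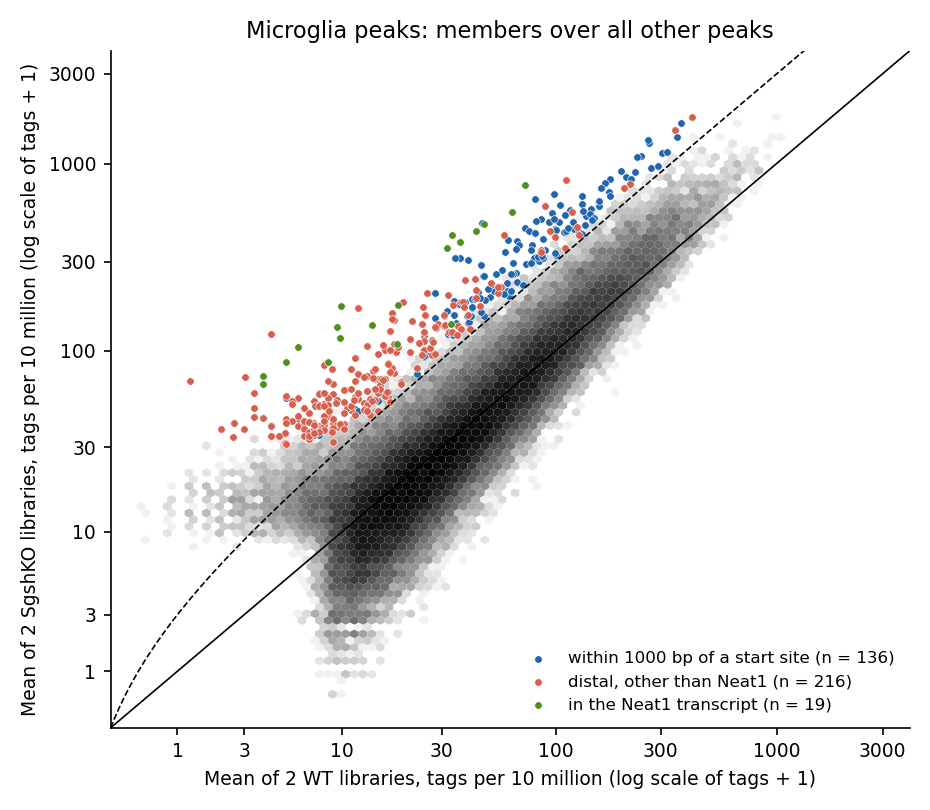
Mean normalized tags in the 2 SgshKO libraries (vertical) against the 2 WT libraries (horizontal) on log scales of tags + 1, with all other microglia peaks as grey bins, the solid line at equality and the dashed line at 3-fold. Start-site members (blue, n = 136) sit at higher levels than distal members (red, n = 216, with those at a Neat1 transcript end among them). The 19 members in the Neat1 exon (green) rose by a median of 10.6-fold in the group means, against 5.05-fold at distal members.

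The 2 SgshKO libraries did not contribute alike to the 3 sets. SgshKO replicate 1 was the higher of the pair in 32 of 136 start-site members (median ratio 0.862) and in 155 of 216 distal members (1.18). It was also the higher in all 19 members in the Neat1 exon (1.98). Among other microglia peaks with both SgshKO values at 30 or more it was higher in 64.1% of start-site peaks (1.10) and 87.8% of distal peaks (1.36). The start-site members thus leaned to SgshKO replicate 2, and the other start-site and distal peaks to replicate 1; what part this difference between libraries plays in the set was not tested.

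Members near the threshold lay close to peaks just outside it. Just inside it, the intronic peak of Zzz3 had 13.8 and 19.5 tags in WT and 62.3 and 58.5 in SgshKO, and the start-site peak of 2310009B15Rik had 64.8 and 61.0 in WT and 194.8 and 223.7 in SgshKO. Just outside it, the start-site peak of Mepce had 144.3 and 107.6 in WT and 432.0 and 570.9 in SgshKO, with a lower SgshKO value 2.99 times the higher WT value.

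The largest rise was 161597 bp upstream of Igf1, which encodes insulin-like growth factor 1, at chr10:87696514-87696822 between genes. Both WT libraries were almost empty there, at 0.86 and 1.69 tags, and the SgshKO libraries had 78.8 and 59.4. The WT values stand for 3 reads in all against 155 in SgshKO, a ratio of 54.1 with an exact 95% counting interval from 18.2 to 265.2. The same reads chose the site, so the interval is no test. It allows neither for that choice nor for the spread between libraries. The site was thus close to unread in both WT libraries and well covered in both SgshKO libraries, and neither nuclei table had a peak there.

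The next rise by rank was 10053 bp downstream of the start of Fabp5, a fatty acid binding protein of the DAM signature, at chr3:10022535-10022742. It had 4.32 and 4.24 tags in WT and 133.3 and 113.3 in SgshKO, a 28.8-fold rise in the means (4.28 ± 0.0566 against 123.3 ± 14.2, SD, n = 2 each). In intron 1 of Got1, the cytosolic aspartate aminotransferase of the malate-aspartate shuttle, tags rose from 5.19 and 0.85 to 77.9 and 66.8. In intron 3 of Gpat3, which catalyses the initial step of triglyceride synthesis, they rose from 2.59 and 4.24 to 64.1 and 54.8. The Got1 and Gpat3 sites, like that of Igf1, rested on 8 or fewer WT reads. Their ratios were 24.2 (11.5 to 61.2) and 17.4 (8.58 to 41.2), with the same limits on the intervals.

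In intron 6 of Runx1, a transcription factor of blood and myeloid development, at chr16:92612548-92612785, tags numbered 12.1 and 11.9 in WT, and 202.6 and 137.4 in SgshKO, a 14.2-fold rise from a level read in both WT libraries. An intergenic site 2720 bp upstream of Lgals3bp, which encodes a galectin-3 binding protein, rose from 8.64 and 7.62 to 85.7 and 81.7. The remaining sites among the 10 highest ranked were 1 member in Neat1, 1 in intron 60 of the calcium channel gene Itpr1 (its nearest start is that of Mir7661), and intergenic sites nearest Ccny and Plekha1, with mean rises of 13.3-fold to 17.6-fold.

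**Figure D2:**
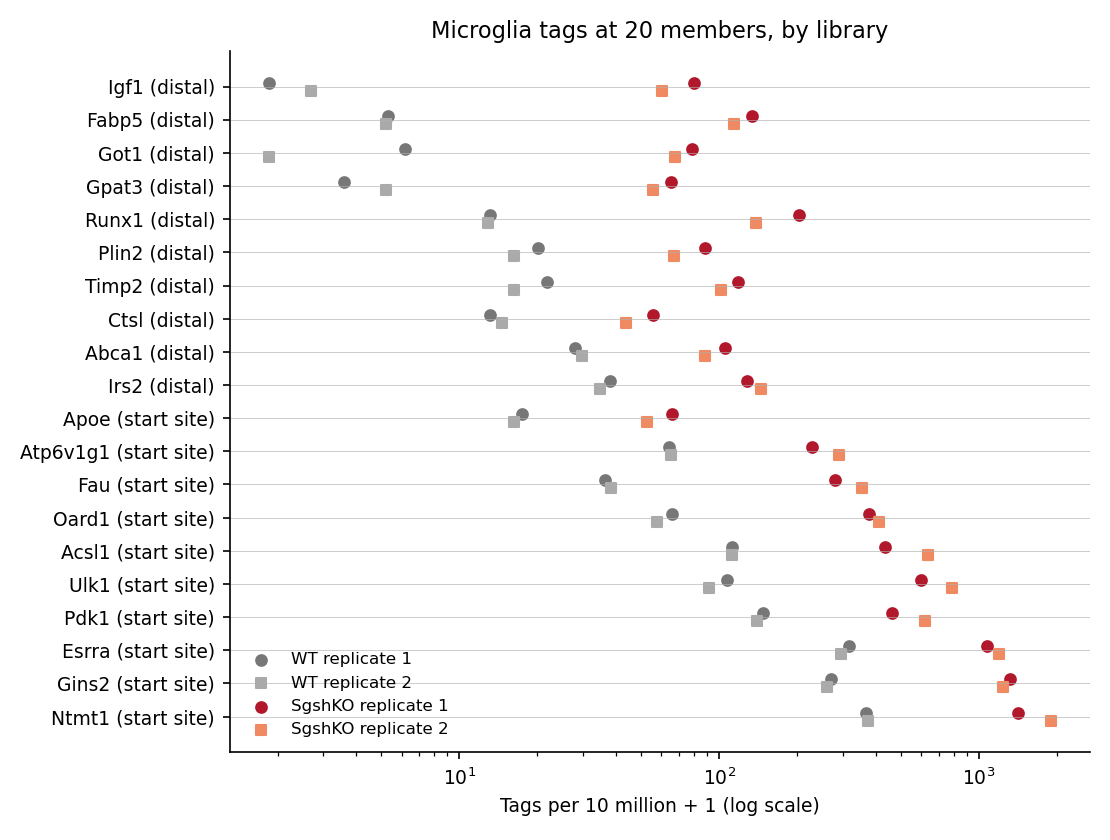
Normalized microglia tags plus 1 (horizontal, log scale) at 20 members, each named by its nearest gene and position, with WT libraries in grey and SgshKO libraries in red and orange (circles replicate 1, squares replicate 2). Distal sites such as Igf1 (0.86 and 1.69 in WT) start low, and start-site members such as Ntmt1 (366 and 373 in WT) start high; at start sites replicate 2 is often the higher SgshKO library.

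The nearest genes were compared with 10 gene lists. Of 336 peaks nearest 35 DAM genes, 6 were members (1.79%, against 0.404% of all microglia peaks): sites of Igf1, Fabp5, Apoe, Timp2, Plin2 and Ctsl. Of 273 peaks nearest 35 lipid handling genes, 5 were members (1.83%), at Fabp5, Plin2, Apoe, Abca1 and Acsl1. The lists share Fabp5, Plin2 and Apoe, and the DAM list was drawn up with earlier results of these data known. Over all peaks of the same genes, limma called 25 higher and 4 lower for DAM and 37 higher and 2 lower for lipid handling, where 5.05% and 2.33% of all microglia peaks were called higher and lower; these calls come from the contrast the rule used.

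Single members of these lists rose as follows. The start-site peak of Apoe had 16.4 and 15.3 tags in WT and 64.9 and 52.0 in SgshKO. A site 20433 bp upstream of Plin2, which coats lipid droplets, had 19.0 and 15.3 in WT and 87.4 and 65.9 in SgshKO. A site in intron 1 of Abca1, the transporter that loads cholesterol onto ApoE, had 26.8 and 28.8 in WT and 104.8 and 87.3 in SgshKO. Each of the 3 was over 3 times higher in both SgshKO libraries, with replicate 1 the higher. Sites of the metalloproteinase inhibitor Timp2 and of cathepsin L (Ctsl) rose 6.06-fold and 3.79-fold in the means.

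Of 475 peaks at 62 lysosome and proton pump genes, 3 were members (0.632%, against 0.404% of all microglia peaks). Among them were the start of Atp6v1g1, a subunit of the proton pump that acidifies lysosomes (63.1 and 64.4 in WT, 226.0 and 288.7 in SgshKO), and the Ctsl site. Of 218 peaks at MITF and TFE family and nutrient sensing genes, only that at the start of Ulk1 was a member (106.3 and 90.7 in WT, 594.8 and 788.2 in SgshKO). Limma called 30 higher and 18 lower peaks for the lysosome list and 21 higher and 2 lower for the nutrient sensing list. The shares over all microglia peaks were 5.05% higher and 2.33% lower.

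Among carbon and mitochondrial metabolism genes 3 of 268 peaks were members, at Got1 and at the starts of Esrra and of Pdk1, a pyruvate dehydrogenase kinase. The WT, then SgshKO, values were 313.7 and 292.3, then 1072 and 1192 at Esrra, and 146.9 and 138.9, then 459.7 and 619.2 at Pdk1. Growth factor and insulin-like signalling genes held 3 members of 286 peaks: Igf1, a site 28195 bp upstream of Igfbp2, an IGF binding protein (5.19 and 6.78, then 40.7 and 44.6), and a site 90270 bp upstream of Irs2, the insulin receptor substrate (37.2 and 33.9, then 127.3 and 143.9). Inflammatory cytokine genes held 1 of 210, a site 20231 bp upstream of the chemokine gene Ccl2 (14.7 and 16.9, then 86.6 and 52.0). The shares were 1.12% for carbon metabolism, 1.05% for growth factors and 0.476% for cytokines, against 0.404% of all microglia peaks. None of 634 peaks at homeostatic microglia genes, 85 at interferon response genes or 497 at AP-1 and small MAF genes was a member. With 0.404% of all peaks in the set, an absence from lists of this size says little. Limma called 35 higher and 5 lower peaks for carbon metabolism, 17 and 7 for growth factors and 11 and 1 for cytokines. It called 4 and 58 for homeostatic genes, 7 and 1 for interferon and 38 and 14 for AP-1. Of all microglia peaks 5.05% were called higher and 2.33% lower.

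The start-site members with the largest rises by rank were at Gpc4, a heparan sulfate proteoglycan of the cell surface (5.19 and 5.08 in WT, 64.9 and 46.4 in SgshKO), and at Fau (35.4 and 37.3, then 277.0 and 352.8). Of the 5, Gpc4 began near the WT level of a distal member. At Pknox1, a homeodomain factor, tags numbered 49.3 and 43.2 in WT, and 314.3 and 645.2 in SgshKO, and at Zfp78, a zinc finger gene, 35.4 and 33.9 in WT and 205.2 and 425.2 in SgshKO. In both, SgshKO replicate 2 was well above replicate 1. At Oard1, which removes ADP-ribose, the SgshKO values were closer, at 374.9 and 412.2 against 64.8 and 56.8 in WT.

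The members with the most SgshKO tags were an intronic site of Phf19, a subunit of the Polycomb repressive complex PRC2 (416.6 and 409.2 in WT, 1597 and 1950 in SgshKO), and the start sites of Ntmt1, an N-terminal methyltransferase (365.6 and 372.8, then 1415 and 1886), Gins2, of the replicative helicase (268.8 and 260.1, then 1316 and 1241), and Camsap1, which binds microtubule minus ends (401.0 and 307.5, then 1313 and 1448). The fifth lay 52861 bp upstream of Wnt7b, a Wnt ligand (381.1 and 310.9, then 1224 and 1785). All 5 were among the accessible sites of WT microglia too.

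By annotation, 133 members were in the promoter class, 111 in introns, 95 between genes, 19 in a non-coding exon (all in Neat1), 7 at transcript ends, 4 and 1 in 3′ and 5′ untranslated regions and 1 in a coding exon. Start-site peaks made up 36.7% of members, 25.9% of all microglia peaks and 36.7% of the peaks with both SgshKO values at 30 or more. Under the rule as written 0.963% of start-site and 0.964% of distal peaks that could meet it were members, a likeness that did not hold under other settings. Without SgshKO replicate 1 start sites made up 56.5% of the peaks chosen and 36.8% of those that could meet the rule, and without SgshKO replicate 2 they made up 18.9% and 32.0%. They were 21.2% of the peaks chosen with in-peak scaling and 15.2% with quantile normalization, against 36.1% and 35.1% of those that could meet it. Of the 60 peaks closed at least 3-fold, 8 were at start sites. Repeats were named in the annotation of 8.63% of members and 9.14% of the peaks that could meet the rule. By chromosome, the share of such peaks that were members ran from 0.469% on chromosome 13 to 2.11% on chromosome 19, where 19 of 28 members were those in the Neat1 exon.

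Where the start-site members differed from other start-site peaks was their side of the start. The centre lay upstream of the TSS in 117 of 136 (86.0%), against 58.9% of start-site peaks with both SgshKO values at 30 or more and 49.9% of all start-site peaks. The median position was 89 bp upstream of the TSS for members and 26 bp upstream for the peaks that could meet the rule. Starts on both strands within 1000 bp were present at 18.4% of the members and 14.5% of the others. The site beside the opened peak did not share the rise: at 88 of the 134 genes another peak lay within 1000 bp of the same start, and the median log2 change of these 135 peaks was 0.05, against 0.03 over all 23670 start-site peaks outside the set.

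RefSeq promoter windows (250 bases before to 50 after the start, GRCm38.p6) overlapped 132 times with start-site members. Their median GC content was 66.3%, against 62.7% for 9861 windows at the other peaks with both SgshKO values at 30 or more and 52.7% for all 32851 windows. Both strands were searched for 6 letter patterns. The E-box core CACGTG, which MITF, TFEB and TFE3 can bind among many other factors, was in 4.55% of member windows, 11.3% of the other windows and 7.15% of all windows, and its extension TCACGTG, which contains it, in 3.03%, 6.73% and 3.77%. The AP-1 pattern TGANTCA was in 7.58%, 4.14% and 7.81%, the MAF core TGCTGA in 9.09%, 14.5% and 19.5%, the ETS core GGAAGT in 21.2%, 30.6% and 23.8%, and AGAACA in 6.82%, 10.4% and 19.0%. Of these patterns only AP-1 was in a larger share of member windows than of the other windows, and it was there in 10 of 132. Windows under distal members were not searched.

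Members also lay near each other. Within a chain of gaps up to 100000 bp, 102 of the 371 (27.5%) had another member, in 32 clusters, and 83 of 352 (23.6%) did so without those in the Neat1 exon. Among the 60 closed peaks 17 (28.3%) did so, a share that is not directly comparable because the sets differ in size. By nearest gene, the members fell on 319 genes, of which 20 had 2 or more and 8 had 3 or more: Neat1 with 21, 4933427D06Rik with 6, Rftn1 with 5, Lncpint with 4, and Tank, Cxcr4, 4930405A10Rik and Pldi with 3 each.

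The largest cluster after Neat1 held 8 members between genes at chr6:88947808-89050909, between Tpra1 and 4933427D06Rik. Their tags summed to 97.6 and 161.0 in the WT libraries, and SgshKO reached 861.4 and 646.1. The other 10 peaks of the span rose too, with a median log2 change of 1.63, so that the change covered the span and not only the peaks that met the rule. The strongest by rank, at chr6:89000416-89000617, had 14.7 and 28.8 tags in WT and 140.3 and 149.5 in SgshKO.

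Rftn1 encodes raftlin, a lipid raft protein that takes part in uptake of receptor ligands. Its cluster held 5 members over 142221 bp at chr17:50050516-50192736, in introns and 2092 bp upstream of the start. They summed to 538.5 and 471.6 in SgshKO, against 85.6 and 79.6 in WT. The 19 other peaks of the span had a median log2 change of 2.19. The start-site peak of Rftn1, 37 bp upstream of the TSS, had 58.8 and 65.2 in WT and 174.0 and 175.5 in SgshKO, under the 3-fold of the rule. Of the 4 members at Lncpint, a long non-coding RNA, all lay in an intron within 9795 bp, and summed to 59.6 and 56.8 in WT and 285.7 and 207.0 in SgshKO.

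A cluster of another kind lay at chr8:70439626-70673253, where 5 members sat near 5 different genes (Crtc1, Pgpep1, Lrrc25, Ell and Lsm4), 4 of them at start sites. They summed to 2519 and 2436 in SgshKO, against 602.3 and 590.5 in WT. The 69 other peaks of this gene-dense span had a median log2 change of 0.44, far below those of the Rftn1 and Tpra1 spans.

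Smaller clusters, named after their values were seen, included that upstream of Cxcr4, the chemokine receptor, where 3 sites 22705 to 120711 bp from the start summed to 40.6 and 29.7 in WT and 306.5 and 226.5 in SgshKO. At Tank, an adaptor of the TBK1 kinase, 3 sites summed to 22.5 and 28.8 in WT and 146.3 and 152.2 in SgshKO.

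**Figure D3:**
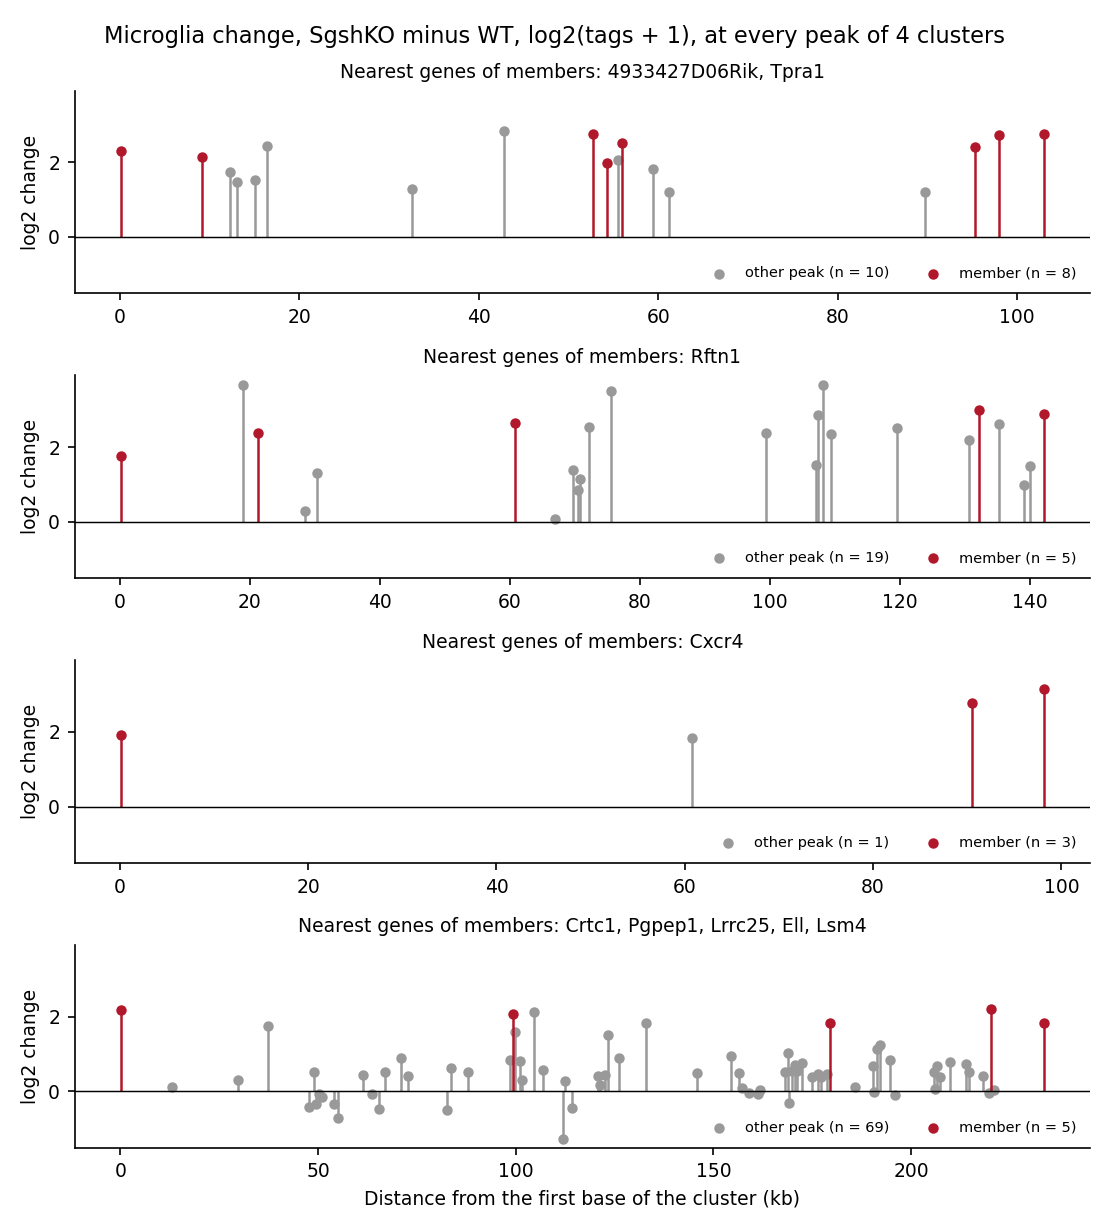
Microglia change, SgshKO minus WT on the log2(tags + 1) scale (vertical), at every peak of 4 clusters by distance from the first base of the cluster (horizontal, kb), with members in red and other peaks in grey. In the Tpra1 and Rftn1 clusters all other peaks lie above 0, while in the Crtc1 to Lsm4 cluster the 69 other peaks lie on both sides of 0 around a median of 0.44.

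Neat1 is the RNA scaffold of nuclear paraspeckles and is transcribed from the minus strand of chromosome 19. Of 38 microglia peaks whose nearest start is that of Neat1, 21 were members: 19 in the exon of the long transcript and 2 at an annotated transcript end 3291 and 4028 bp from the start. The 19 summed to 490.9 and 446.5 tags in WT and 6325 and 3252 in SgshKO, a 10.2-fold rise in the means with SgshKO replicate 1 at 1.94 times replicate 2. The rule required both SgshKO libraries to be above both WT libraries at each member. The size of the rise differed between the SgshKO libraries more than in the other 2 sets of members.

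The members in the Neat1 exon ran from 1512 to 14092 bp downstream of the start. At 4823 bp, tags numbered 90.7 and 54.2 in WT, and 1018 and 512.5 in SgshKO. At 12500 bp WT had 2.59 and 5.08 and SgshKO had 102.2 and 43.6, the largest mean rise of the transcript, 19.0-fold. At the start itself, 38 bp upstream of the TSS, WT had 275.7 and 232.1 and SgshKO 889.1 and 743.6, a 3.22-fold rise in the means that did not meet the rule. The members along the body of the transcript had larger folds than the promoter, but the rule chose them by fold. Of the exon peaks outside the set, that at 771 bp had a smaller mean fold than the promoter, 1.65. The others had mean folds from 3.58 to 6.64.

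In Olig2+ nuclei, 20 peaks lay in the Neat1 exon, and they summed to 342.3 and 346.2 in WT and 306.8 and 358.3 in SgshKO, a fold of 0.966. Limma called 2 of them higher and 1 lower, where 8.17% and 11.7% of all Olig2+ peaks were. One of those called higher lay under the member at 5646 bp (13.5 and 8.18 in WT, 19.7 and 19.9 in SgshKO, log2 change 0.85, limma adjusted p = 0.0357). In NeuN+ nuclei a single peak overlapped a member of the exon and was not called (9.06 and 10.7, then 12.6 and 10.8). At the annotated transcript end, the NeuN+ peak under the member at 3291 bp was called lower, at few tags. It had 7.36 and 10.2 in WT and 4.19 and 2.54 in SgshKO (log2 change -1.17, limma adjusted p = 0.0259). That under the member at 4028 bp was not called (11.3 and 6.78, then 6.98 and 7.62). The rise along Neat1 in microglia was not matched by one of like size in either nuclei sort.

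**Figure D4:**
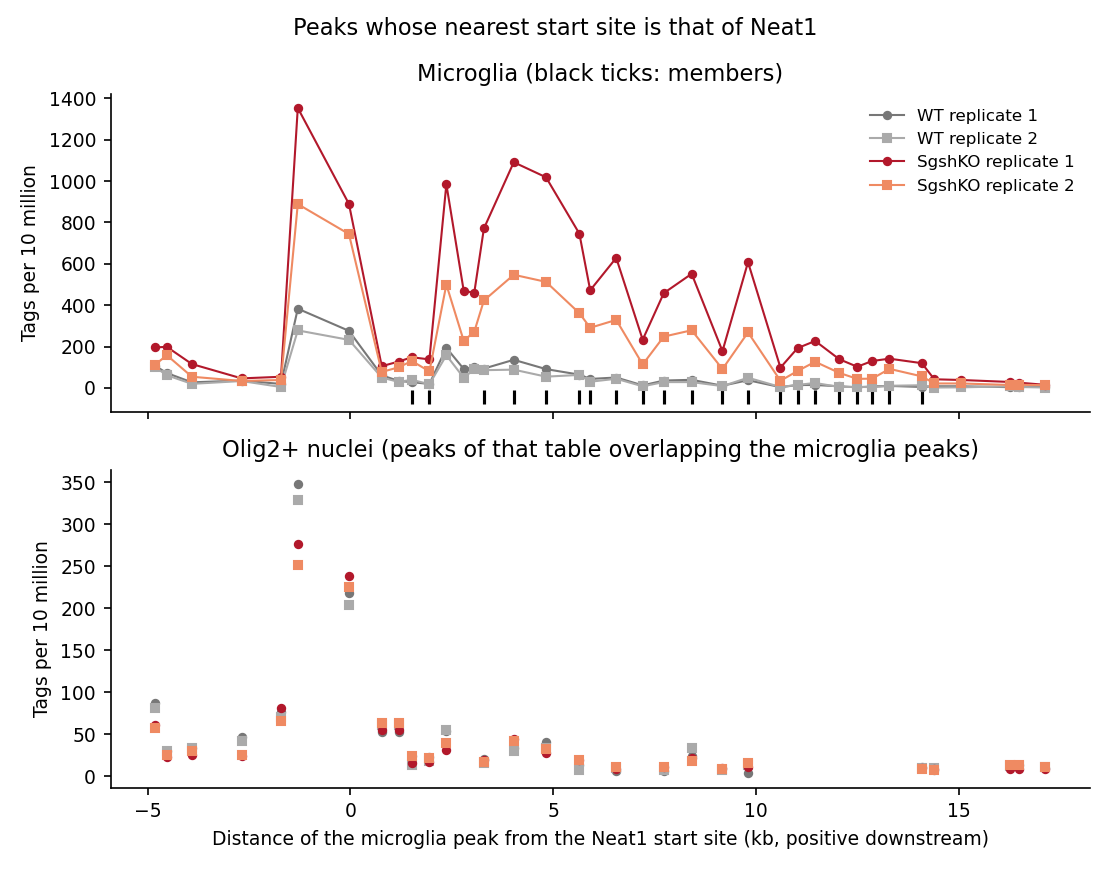
Normalized tags (vertical) at the 38 microglia peaks nearest the Neat1 start, by distance from it in kb (horizontal), for the 4 microglia libraries (upper panel, lines; black ticks mark members) and at the overlapping peaks of the 4 Olig2+ libraries (lower panel, points). In microglia both SgshKO libraries run above both WT libraries along the transcript and replicate 1 runs above replicate 2, while in Olig2+ nuclei the 4 libraries lie close together.

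The surroundings of the members differed by position. Other peaks within 2000 bp of a distal member had a median log2 change of 0.80 (140 peaks), and 66.4% of them had both SgshKO values above both WT values, against 22.7% of all peaks outside the set and 23% of all microglia peaks. The median was 0.46 at 2000 to 10000 bp, 0.18 at 10000 to 50000 bp, 0.08 at 50000 to 100000 bp and -0.11 beyond 500000 bp. Around start-site members the medians over the same distances were 0.10, 0.25, 0.24, 0.18 and -0.10. The neighbours of distal members thus changed most nearest the member, while no such gradient was seen next to start-site members. All peaks outside the set had a median of -0.08.

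Most start-site members were shared with the other cell types, while most distal members, like most other distal microglia peaks, were not. Of the 136 start-site members, 130 (95.6%) overlapped a NeuN+ peak and 130 an Olig2+ peak, where 80.1% and 76.7% of the other start-site peaks with both SgshKO values at 30 or more did so. Of the 216 distal members outside the Neat1 exon, 154 (71.3%) overlapped a peak in neither nuclei table, against 68.5% of the other distal peaks. The members absent from both nuclei tables include the sites of Igf1, Gpat3, Runx1, Lgals3bp, Igfbp2, Irs2, Plin2, Timp2, Abca1, Ctsl and Ccl2.

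In NeuN+ nuclei the same places went down on the scale of total tags. Of 177 NeuN+ peaks at members, limma called 4 higher and 120 lower (adjusted p under 0.05), where 10.2% of all NeuN+ peaks were called higher and 19.6% lower. At start-site members 112 of 129 were lower (86.8%) and 0 higher; at an unadjusted p under 0.05 limma had 4 of the 177 higher, as after adjustment, and edgeR called 2 of the 129 higher. Over all NeuN+ start-site peaks 1.74% were higher and 44.9% lower, and at the other start-site microglia peaks with both SgshKO values at 30 or more 61.0% of 11204 were lower, and the median log2 change was -0.73 at members and -0.59 at the others. The share called lower was larger at well-covered peaks: among peaks with a WT mean of at least 100 tags it was 93.1% at members and 85.5% at the others. On total tags the decrease in NeuN+ nuclei was thus present at most start sites open in microglia, and whether it differed between members and the others was not tested.

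The size of that decrease depended on the scaling. The fraction of tags in peaks fell from 26.7% and 25.9% in WT to 21.5% and 21.2% in SgshKO in NeuN+ nuclei, and the median log2 change over all 107627 peaks was -0.23 on total tags and 0.05 when scaled to tags in peaks. Relative to that median, start-site members stood at -0.50 on total tags, -0.48 on tags in peaks and -0.49 with edgeR's TMM scaling, with 112, 88 and 97 of 129 called lower. With quantile normalization they stood at -0.14 and the other start-site peaks at -0.13, so the medians were alike, while 42 of 129 members (32.6%) and 14.5% of the others were called lower. The members' median was below that of all NeuN+ peaks under each of these 4 scalings. Of all NeuN+ calls 34.3% were higher on total tags, 66.5% on tags in peaks, 62.0% with quantile normalization and 58.2% with edgeR.

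The strongest NeuN+ decreases at members by p were at the starts of Fzr1, an activator of the anaphase-promoting complex (762.4 and 688.4 in WT, 390.2 and 360.6 in SgshKO, log2 change -0.95 ± 0.06 SE, limma adjusted p = 6.71e-08), A530072M11Rik (741.5 and 694.6, then 420.9 and 374.6) and Pknox1 (581.2 and 537.1, then 312.0 and 299.0). In microglia the Fzr1 peak had moved the other way, from 213.5 and 184.7 to 722.0 and 1106. At Ulk1, Esrra and Acsl1 the NeuN+ peaks fell likewise, by 0.80, 0.89 and 0.99 on the log2 scale (limma adjusted p = 2.53e-06, 7.46e-07 and 7.07e-07). Oard1 was an exception, at 398.2 and 381.2 in WT and 400.7 and 375.2 in SgshKO.

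Over all distal NeuN+ peaks 12.6% were called each way. At distal microglia peaks outside the set with both SgshKO values at 30 or more, 2.99% of 5860 NeuN+ peaks were higher and 29.9% lower. Of the 47 NeuN+ peaks at distal members outside the Neat1 exon, 4 were called higher (8.51%) and 8 lower (17.0%). Among the 8 was a peak at a Neat1 transcript end. Whether these shares differed was not tested. The 3 named by the smallest p were the sites nearest Zfat (2.27 and 1.69, then 6.28 and 11.4; log2 change 1.68, limma adjusted p = 0.00507), Gm10364 (17.6 and 19.8, then 34.2 and 31.1; 0.78, 0.0126) and D17Wsu92e (9.06 and 10.2, then 20.9 and 15.9; 0.86, 0.0273). At these few sites both NeuN+ SgshKO libraries were above both WT libraries, which in microglia the rule required. The Zfat peak rests on few reads.

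In Olig2+ nuclei more of the members' places were called higher than lower. Limma called 48 of 178 Olig2+ peaks at members higher (27.0%) and 21 lower (11.8%), against 8.17% and 11.7% of all Olig2+ peaks. At start-site members 36 of 129 were higher (27.9%) and 15 lower, where 12.7% of all Olig2+ start-site peaks were higher and 7.56% lower, and 16.4% and 7.74% of the 10665 at other microglia start sites; with a WT mean of at least 100 tags the shares higher were 31.1% and 23.2%, and the shares lower 13.2% and 12.8%. The median log2 change was 0.06 at start-site members and 0.07 at the others. Whether the shares differed between members and other start sites was not tested. Of 39 peaks at distal members 11 were higher and 6 lower, where 6.7% and 13% of all distal Olig2+ peaks were, and 8.15% and 13.8% of those at other distal microglia peaks.

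Apoe had the largest increase among members in Olig2+ nuclei. Its start-site peak had 48.2 and 48.1 tags in Olig2+ WT and 116.2 and 119.7 in SgshKO (log2 change 1.27 ± 0.14 SE, limma adjusted p = 1.11e-07), beside 16.4 and 15.3 against 64.9 and 52.0 in microglia. In microglia the rule of the set required that the groups did not overlap, and NeuN+ nuclei had no peak there. At the start next to Anxa5, which encodes a phospholipid-binding annexin, Olig2+ tags numbered 127.1 and 124.3 in WT, and 252.1 and 240.0 in SgshKO (0.96 ± 0.10 SE, limma adjusted p = 2.29e-08), and in microglia 193.6 and 128.8 against 713.4 and 775.2. The Fabp5 site rose in Olig2+ nuclei from 50.3 and 50.6 to 71.9 and 78.4 (0.56 ± 0.15 SE, limma adjusted p = 0.01).

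The site upstream of Wnt7b rose from 506.2 and 529.3 to 705.2 and 700.6 in Olig2+ nuclei (0.44, limma adjusted p = 1.19e-06), and the start of Pgpep1, a pyroglutamyl peptidase, from 47.7 and 48.1 to 103.9 and 105.0 (1.11, 1.93e-06). In the other direction, the start of Hdgfl2, a chromatin reader, fell from 1451 and 1534 to 971.5 and 1005 (-0.59, limma adjusted p = 1.21e-11), that of Esrra from 444.0 and 463.3 to 333.9 and 335.7 (-0.44, 2.95e-05), and an intronic site of Traf2, an adaptor of TNF receptors, from 63.8 and 76.2 to 30.1 and 36.6 (-1.05, 8.61e-05). At Esrra and Hdgfl2 the microglia libraries went up while both nuclei sorts went down. At Apoe and Anxa5 microglia and Olig2+ nuclei both went up.

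**Figure D5:**
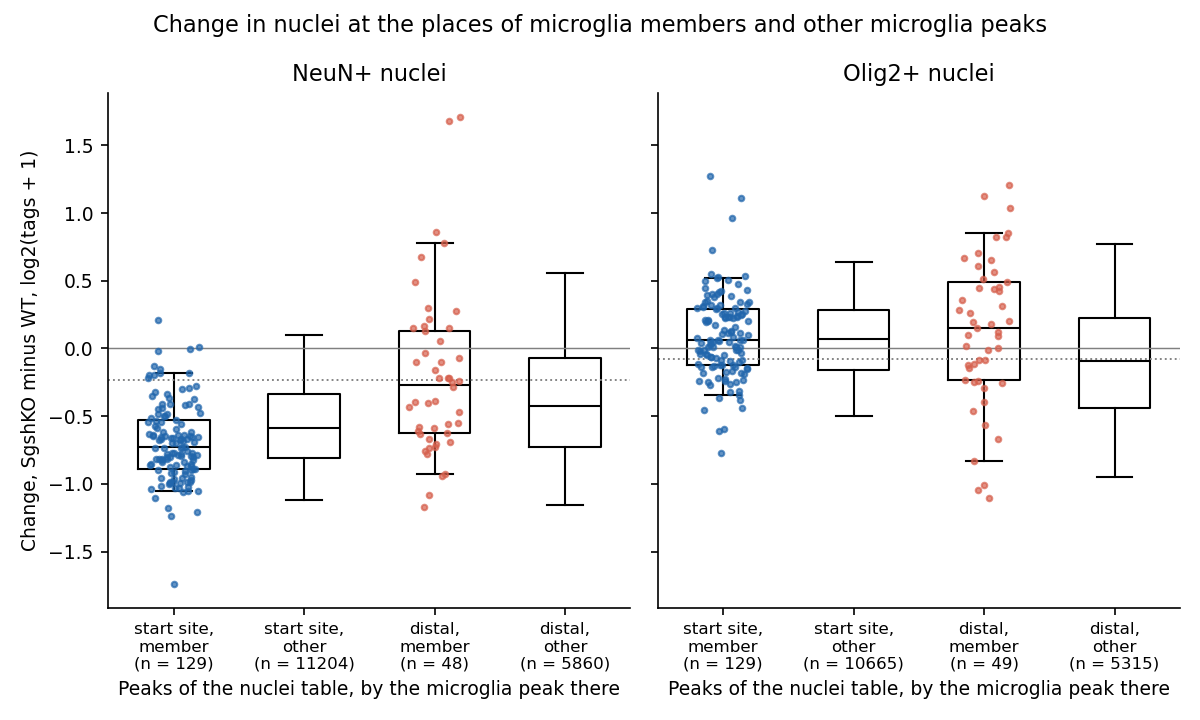
Change in NeuN+ (left) and Olig2+ (right) nuclei, SgshKO minus WT on the log2(tags + 1) scale (vertical), at nuclei peaks that overlap start-site members, other start-site microglia peaks, distal members or other distal microglia peaks (others: both SgshKO values at 30 or more); boxes show quartiles, whiskers the 5th to 95th percentile, points single peaks and dotted lines the median of all peaks. In NeuN+ nuclei the start-site members centre on -0.73 and the other start sites on -0.59, while in Olig2+ nuclei both centre near 0 (0.06 and 0.07).

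The change in NeuN+ nuclei was compared with that in Olig2+ nuclei in 1 limma model of the 8 nuclei libraries over 29576 shared peaks. At the places of 144 members the NeuN+ change was below the Olig2+ change in 121 (84.0%) and above it in none, where 31.7% of all shared peaks were called below and 3.29% above. At an unadjusted p under 0.05 it was below in 125. At start-site members the share was 109 of 124, against 49.3% of all shared start-site peaks, and the median difference was -0.80 at members and -0.62 at shared start-site peaks. With quantile normalization the count was 44 below and 13 above, so the share depends on how the NeuN+ libraries are scaled.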

How the data were processed

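ATAC-seq was measured in microglia, NeuN+ nuclei and Olig2+ nuclei of WT and SgshKO mice, in 12 libraries with 2 per genotype and sort. The submitters' processing notes name Bowtie2, HOMER and the mm10 build, without versions or roles. How reads were filtered or shifted is not given in the sources used here. For each sort the authors deposited 1 peak table with annotation and nearest gene. Per the file headers, the deposited signal is the tag count of each peak in each library, scaled to a total of 10000000 tags. Peak Score, which the authors deposited as a score between 540 and 1000, entered no test. Undoing the scaling gave whole reads for 100% of values (within 0.01). Precision is limited by read number: the median reads per peak per library were 27 to 39 in microglia and 17 to 30 in the nuclei, and counting intervals cover counting error only.

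Within each nuclei table, log2(tags + 1) was compared between genotypes with limma 3.58.1 in R 4.3.3 (trend, two-sided, no covariate), with Benjamini-Hochberg adjustment over the whole table and a threshold of 0.05. A change on this scale is understated at low peaks; each ± after a log2 change is a standard error. The same fit in microglia was used only for counts over gene lists. A nuclei peak was placed at a member when they overlapped by at least 1 bp. NeuN+ and Olig2+ changes were compared on peaks that pair one-to-one with a reciprocal overlap of 50%, a model added after seeing the data. The scripts were tested on simulated counts. A window search for motifs needs a genome and was made only in RefSeq promoters.

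Of the Entrez numbers, 99.95% or more were found in RefSeq (GRCm38.p6), which restored 169, 202 and 168 symbols that had become dates. Members, gene lists and marker lists were chosen with earlier results of these data known. Named members were the 10 highest by log2 of (lower SgshKO + 1) over (higher WT + 1), up to 3 in each of the 5 largest clusters, list genes, the 5 highest at start sites, the 5 with most SgshKO tags, the 3 smallest p in each direction and nuclei table, and the 3 at the edge; others are said to have been named later. A few members under this rule are not reported here. Alternatives were pseudocounts of 0.5 and 5, a filter on the lowest 25% of peaks, in-peak scaling, quantile normalization, a replicate block, edgeR 4.0.16 on the recovered reads, other folds, minimums, windows and overlaps, and leaving out each library.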

Additional observations from a re-analysis of the deposited data

Results flagged for a closer look

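The rule for a closer look that these groups of 2 libraries allow is a difference between the NeuN+ and Olig2+ changes, tested as an interaction in limma over 29576 shared peaks. Of all shared peaks 31.7% were called with the NeuN+ change lower and 3.29% with it higher, and of shared start-site peaks 49.3% and 1.73%. Over the 144 members with a shared peak, quantile normalization gave 44 lower and 13 higher, so the direction depends in part on the scaling. Among the named members reported here, 22 passed an adjusted p of 0.05 on total tags, and in each the NeuN+ change was the lower. The largest difference was at the start of Pgpep1, where the NeuN+ change minus the Olig2+ change was -2.08 on the log2 scale (limma adjusted p = 1.88e-08): tags fell from 52.1 and 50.3 to 25.8 and 25.4 in NeuN+ nuclei and rose from 47.7 and 48.1 to 103.9 and 105.0 in Olig2+ nuclei. At the Itpr1 intron nearest Mir7661 the difference was -1.62, and at the starts of Anxa5, Acsl1, A530072M11Rik, Gpc4 and 2310009B15Rik it was -1.24, -1.23, -1.19, -1.17 and -1.07. Differences between -1.03 and -0.70 were found for Wnt7b (-1.03), Fzr1 (-0.96), Atp6v1g1 (-0.89), Pknox1 (-0.86), Ntmt1 (-0.85), Fau (-0.79), Ulk1 (-0.76) and Crtc1 (-0.70). The smaller ones were at Camsap1 (-0.61), Pdk1 (-0.58), Zfp78 (-0.47), Esrra (-0.45), Gins2 (-0.40), Phf19 (-0.38) and Oard1 (-0.35), with limma adjusted p-values from 8.98e-05 to 0.00339. On total tags, the NeuN+ and Olig2+ changes at Pgpep1, Wnt7b, Crtc1, A530072M11Rik and Acsl1 each passed in their own limma fit, in opposite directions. They were -0.97 and 1.11, -0.59 and 0.44, -0.30 and 0.40, -0.85 and 0.34, and -0.99 and 0.24. The median NeuN+ change over all peaks was -0.23 on total tags and 0.05 on tags in peaks. The NeuN+ change at Crtc1 lay near the former, so its direction may depend on the scaling. At Esrra, Gins2 and Camsap1 both passed and both were below 0.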

How the results depend on the processing

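With 2 libraries per group, leaving out 1 leaves a lone library assumed to vary like the other group. The replicate block moved microglia calls from 6765 to 14489; NeuN+ and Olig2+ calls (32105 and 16370) became 35764 and 17632, and no count at members moved by over 1.5 times. Numbers only name the libraries: deviations of same-numbered libraries correlated at 0.042, 0.00361 and 0.000688 in microglia, NeuN+ and Olig2+ tables. Microglia calls were 14522 with in-peak scaling, 10492 with quantile normalization and 14132 with edgeR (35.1%, 61.8% and 67.1% of them higher, against 68.5%), and 557 (without WT replicate 2) to 18850 (without SgshKO replicate 1) with 1 library left out. NeuN+ calls were 16745 with quantile normalization and 29497 with edgeR, and 0 to 14482 with 1 library left out; without either SgshKO library limma called 0, with 33265 and 32556 at an unadjusted p under 0.05. Olig2+ calls were 6090 to 15596 with 1 left out, and 17864 with edgeR.

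At members, NeuN+ peaks called higher were 8 with in-peak scaling, 12 with quantile normalization, 7 with edgeR, 2 with a reciprocal overlap of 50% and 0 to 2 with 1 library left out. Those called lower were 44 with quantile normalization, 103 with edgeR and 0 to 109 with 1 left out; the 0, without either SgshKO library, stand beside 114 and 113 at an unadjusted p under 0.05. Olig2+ peaks called higher ranged from 29 (without WT replicate 1) to 52 with 1 library left out, and were 58 with in-peak scaling and 68 with edgeR. Those called lower ranged from 9 to 19 with 1 library left out, and were 12 by edgeR. The set itself held 1558 peaks at a fold of 2, 140 at 4 and 222 with in-peak scaling (211 shared with the 371), 361 with quantile normalization (242 shared), and 487 to 1162 when 1 library was left out, since the rule then asks less; 41 of the 140 were in clusters. The start-site share of 36.7% was 34.5% with the narrower and 41.2% with the wider window around start sites. It was 52.7% at a fold of 2, 22.1% at 4, 27.4% and 48.0% at a minimum of 20 and 50 tags, 21.2% with in-peak scaling, 15.2% with quantile normalization, and 18.9% (without SgshKO replicate 2) to 56.5% (without SgshKO replicate 1) with 1 library left out. The count of members with a NeuN+ change below the Olig2+ change was 44 with quantile normalization and 110 to 121 with 1 of 8 libraries left out (alternatives chosen after seeing the data).

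Of named members' changes, 14 reversed: in NeuN+ nuclei Got1 (0.18 in-peak, 0.11 edgeR), Fau (0.023 quantile) and Oard1 (0.29 in-peak, 0.53 quantile, 0.21 edgeR, and -0.054 to 0.040 with 1 library left out); in Olig2+ nuclei Pknox1 (0.010 in-peak, 0.057 edgeR, and -0.062 to 0.043 with 1 left out) and Ulk1 (0.025 edgeR, and -0.094 to 0.013 with 1 left out). The cause was not tested. Another 40 lost and 12 gained a call in the nuclei, and 55 microglia changes moved by more than the spread between libraries. The other 857 kept direction, and stayed on the same side of the threshold in nuclei or within that spread in microglia. Depth limits the distal sites, some with under 10 WT reads.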
